A study of Mus musculus with 4 samples.

Results

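The endothelin genes of the developing mouse ovary were examined in 4 RNA-seq libraries made at embryonic stage E13.5. The 7 genes, out of 34682 rows of the count table, are the ligands Edn1, Edn2 and Edn3, the receptors Ednra and Ednrb, and the converting enzymes Ece1 and Ece2, found by their symbols. The family was chosen by its levels in these 4 libraries and its differences between mutant and wild type, which were known from earlier results of these data, so these differences are given as a description and support nothing further. There were 2 libraries from Sall1-overexpressing mutant ovaries and 2 from wild-type ovaries. The mutants carry a BAC, a large genomic insert, in which the regulatory elements of Wt1 drive the Sall1 coding sequence in the somatic cells of the gonad that express Wt1. It was introduced with piggyBac into female mouse embryonic stem cells of C57BL/6J background, and clones with an integration were used to make embryos by morula aggregation. The methods also name a C57BL/6J-129 hybrid background for transgenic experiments, they do not say how many such clones or embryos stand behind a library, and they give CD1 as the strain of wild-type gonads for RNA-seq, whereas the names of the wild-type columns contain B6 and the controls are described elsewhere as littermates. A difference of strain and a difference of genotype can therefore not be told apart here. The sources used here do not say whether libraries of a group came from separate embryos, and the p-values measure the spread between these libraries, which may be technical.

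Endothelins are short peptides cut from larger precursors. A furin-like protease first releases an intermediate called big endothelin, and a converting enzyme (Ece1 or Ece2, both membrane metalloproteases) then cuts after a tryptophan to give the active peptide. The peptides act on a pair of G protein-coupled receptors: Ednra prefers endothelin-1 and endothelin-2, while Ednrb binds the 3 peptides about equally well. Ednra is typical of vascular smooth muscle and of cranial mesenchyme, and Ednrb of endothelium and of neural crest cells, where Edn3 is its ligand in melanocyte and enteric neuron precursors. In the adult ovary Edn2 made by granulosa cells takes part in ovulation.

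The ligands resemble each other in a short stretch of each transcript. The bases that encode the mature peptide and the first residue beyond it are shown for the 3 ligands. Ece1 and Ece2 cut within the peptide that these bases encode. The sequences were read from GENCODE M1 transcripts and were identical to the NCBIM37 genome, the Ensembl name of mm9, which is the build in the submitters' processing notes. Capitals mark the tryptophan codon and the codon after it, between which the converting enzyme cuts.
Edn1: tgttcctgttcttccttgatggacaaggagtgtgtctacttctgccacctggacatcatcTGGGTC
Edn2: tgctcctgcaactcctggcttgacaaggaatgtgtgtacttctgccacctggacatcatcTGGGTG
Edn3: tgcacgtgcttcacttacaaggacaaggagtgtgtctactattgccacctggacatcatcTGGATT
Each stretch lies within exon 2 of 5 on the plus strand, for Edn1 at chr13:42399018-42399083, for Edn2 at chr4:119834556-119834621 and for Edn3 at chr2:174587250-174587315 (mm9). Over the 21 codons of the mature peptide, Edn1 and Edn2 shared 53 of 63 bases and encoded the same residue at 18 codons. Edn3 shared 50 bases with Edn1 and 48 with Edn2, and encoded the same residue as either of them at 15 codons. Over whole transcripts, the longest run of bases common to the longest transcripts of any 2 of the 7 genes was 29, between Edn1 and Edn2. A run of this length lies within the stretches shown. Ednra lies on the minus strand at chr8:80186930-80248363, within the span of a lincRNA that GENCODE M1 places on the opposite strand. Ednrb lies on the minus strand at chr14:104213842-104243390. Ece1 lies at chr4:137418152-137521144 and Ece2 at chr16:20611666-20646558, both on the plus strand and both with a transcript of the opposite strand inside them. These overlaps are of whole gene spans, and whether exons are shared was not examined. The handling of strands during counting is not given in the sources used here. Where exons are shared, reads of such partners can therefore not be told from those of the member.

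Library totals lay between 11036313 and 17869840 counts, with the mutant libraries shallower, and a count of 3, taken as the floor, corresponded to 0.168 to 0.272 CPM (counts scaled to a fixed library total). Sall1, the overexpressed gene, stood at 104 ± 11.8 CPM in the mutant libraries, against a wild-type level of 14.4 ± 2.53 CPM (SD, n = 2 each), in accordance with the labels. Markers of ovarian cells were present in each library, with summed levels between 1248 and 1465 CPM for 11 pre-granulosa genes and between 1626 and 1879 CPM for 8 germ cell genes, and 4 Y-linked genes had 0 counts. Levels were scaled with edgeR's TMM factors, and genotypes were compared with the quasi-likelihood test of edgeR, adjusted by the Benjamini-Hochberg method over the 15442 genes that passed the filter on low counts, among them 6 of the 7 endothelin genes. For a single gene, an exact permutation test of 2 libraries against 2 cannot give a p below 0.333.

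Of the 6 endothelin genes with counts under their own symbol, the converting enzyme Ece1 and the receptor Ednra had the highest levels in the E13.5 ovary, and the ligands, with Ednrb, the lowest. Compared per length, as CPM per kilobase of the longest coding transcript, the order in wild-type ovaries was Ece1 with 33.2 ± 2.23, Ednra with 18.3 ± 0.349, Edn3 with 4.21 ± 0.0550, Ednrb with 3.71 ± 3.05, Edn2 with 1.26 ± 0.0778 and Edn1 with 0.869 ± 0.0674 (SD, n = 2 each). Ece1 stood above 82.7% and Ednra above 67.2% of the 13379 genes tested that had a length, whereas Edn3 stood above 32.3%, Ednrb above 30.2%, Edn2 above 16.6% and Edn1 above 12.9%. In mutant ovaries the order was the same, with 34.9 ± 0.794 for Ece1, 9.62 ± 0.203 for Ednra, 3.70 ± 0.234 for Edn3, 1.78 ± 0.240 for Ednrb, 1.000 ± 0.515 for Edn2 and 0.678 ± 0.0834 for Edn1. The libraries of neighbouring genes in this order overlapped for Edn3 and Ednrb in the wild type, and for Edn2 and Edn1 in the mutant. With the union of all exons as the length, the Ednra level in wild type was 12.1 per kilobase and Ednrb (3.66) stood before Edn3 (3.19), so the order of this last pair depends on the transcript model.

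**Figure D1:**
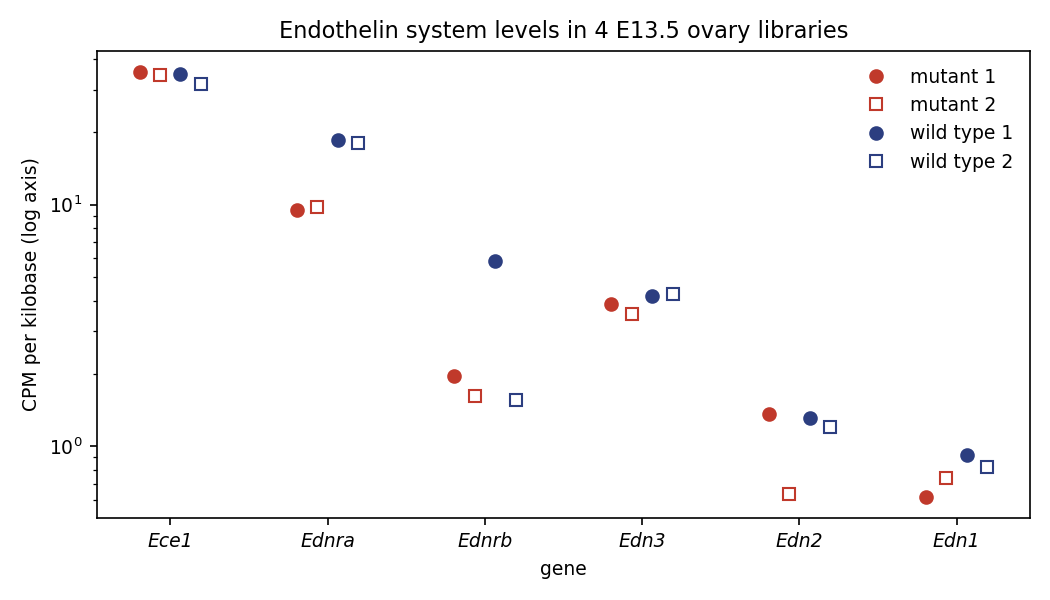
Level of 6 endothelin genes in each library, as CPM per kilobase of the longest coding transcript on a log axis; red marks mutant and blue wild-type libraries, circles replicate 1 and open squares replicate 2. The mutant and wild-type points separate widely for Ednra, and for Ednrb wild-type replicate 1 (5.87) stands apart from the other 3 libraries (1.55 to 1.95).

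Among the ligands, Edn3, which encodes the peptide known for its action on Ednrb, had the highest level per length in each of the 4 libraries. With the longest coding transcript as the length, Edn3 stood at 4.55 to 6.25 times the level of Edn1 and 2.84 to 5.56 times that of Edn2. Its counts were 133 and 166 in mutant libraries and 224 and 234 in wild-type libraries, or 12.1 and 11.0 CPM against 13.004 and 13.2 CPM. Both mutant libraries were thus a little lower, with a log2 fold change of -0.19 and a standard error of 0.16, which did not pass edgeR's test (adjusted p = 1).

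Edn1, the ligand made by vascular endothelium, was counted 16 and 26 times in mutant and 37 and 34 times in wild-type ovaries, that is 1.45 and 1.73 CPM against 2.15 and 1.92 CPM. The groups did not overlap, but the 95% Poisson interval of the lower mutant library (0.829 to 2.35 CPM) contained both wild-type values. The log2 fold change was -0.35 with a standard error of 0.36 (adjusted p = 1 in edgeR's test), so the difference did not pass. These intervals cover counting error only.

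Edn2, the granulosa cell ligand of the adult ovary, had 22 and 14 counts in mutant and 33 and 31 counts in wild-type ovaries, or 1.99 and 0.930 CPM against 1.92 and 1.75 CPM. The mutant libraries lay on either side of the wild-type libraries. Its log2 fold change, -0.35 with a standard error of 0.47 (adjusted p = 1 in edgeR's test), turned to 0.12 without mutant replicate 2.

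The largest separation within the family was that of Ednra, the receptor that couples endothelin-1 to contraction in smooth muscle and to patterning in cranial mesenchyme. Mutant libraries held 379 and 533 counts of Ednra, wild-type libraries 1159 and 1157. Scaled to library size, these were 34.3 and 35.4 CPM in mutant and 67.3 and 65.5 CPM in wild-type ovaries, so that both mutant libraries stood far below both wild-type libraries and the lowest wild-type value was 1.85 times the highest mutant value. The means were 66.4 ± 1.26 CPM for the wild type and 34.9 ± 0.737 CPM for the mutant (SD, n = 2 each), a 1.90-fold difference.

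The log2 fold change of Ednra was -0.93 (standard error 0.11), which ranked 14 by p among all genes tested. Its adjusted p by edgeR was 0.0624, just above the threshold of 0.05. DESeq2 with default settings, the tool of the study, gave -0.93 with an adjusted p of 6.29e-06. Over 10 alternatives, DESeq2 among them, the direction was the same, the log2 fold change lay between -0.95 and -0.91 and the adjusted p between 6.29e-06 and 0.263, and 6 of the 10 passed. Within replicate number 1 the log2 difference was -0.97 and within number 2 it was -0.89.

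Of the 6 endothelin genes tested, 0 passed at an adjusted p under 0.05 in edgeR's test, where 0.0583% of all genes did (0.0453% lower and 0.013% higher in the mutant). At an unadjusted p under 0.05 there was 1 (Ednra), where 5.69% of all genes passed, and with DESeq2 there was 1, again Ednra, where 0.714% of all genes with an adjusted p passed. With the replicate number as a block there was 1 as well, where 2.49% of all genes passed. The libraries of the groups did not overlap, with the mutant lower, for 3 of the 6 genes (Edn1, Edn3 and Ednra), where this held for 15% of all genes tested. Of all genes, 30.8% did not overlap in one direction or the other, and 15.8% with the mutant higher, which held for 0 of the 6. The median log2 fold change of the 6 genes was -0.35, that of all genes -0.00088.

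**Figure D2:**
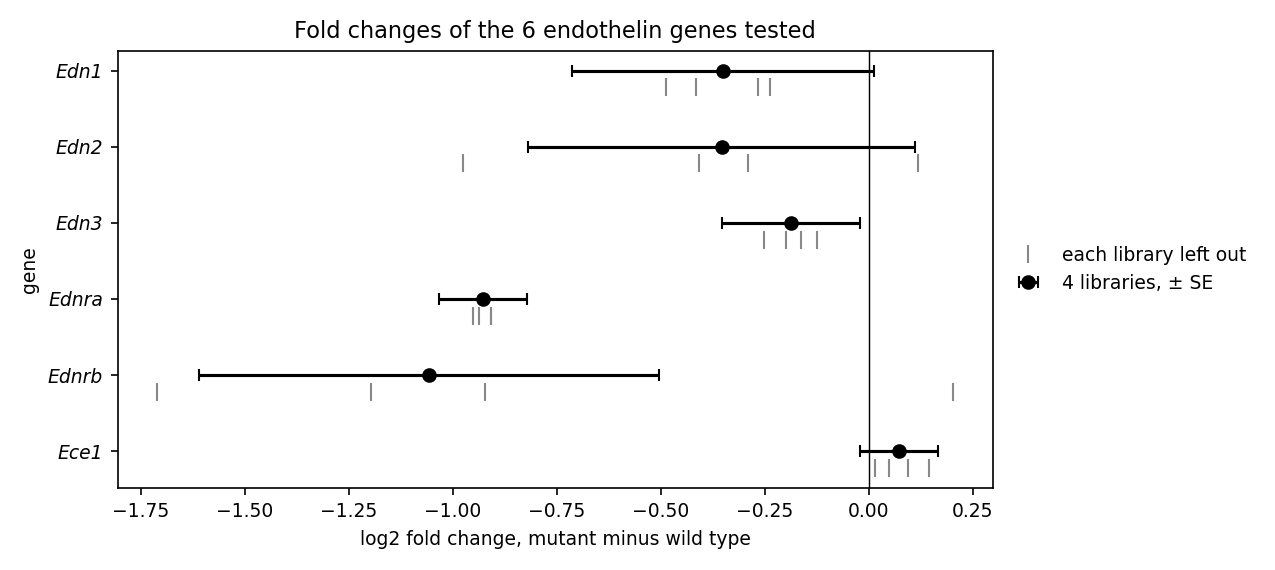
Log2 fold change of the 6 tested endothelin genes, mutant minus wild type (edgeR; points with bars of 1 standard error), with grey ticks for the fits that leave out each library in turn. The ticks of Ednra lie between -0.95 and -0.91, whereas those of Ednrb run from -1.71 to 0.20 and those of Edn2 from -0.98 to 0.12.

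Ednrb, the receptor of endothelial and neural crest cells, varied most among the libraries. Its counts were 86 and 97 in mutant ovaries, but 403 in wild-type replicate 1 and 109 in wild-type replicate 2. In CPM these were 7.79 and 6.44 in mutant ovaries against 23.4 and 6.17 in wild-type ovaries. The wild-type libraries therefore enclosed the mutant libraries, with wild-type replicate 1 at 3.79 times the level of its replicate, and the 95% Poisson intervals of these 2 libraries (21.2 to 25.8 CPM and 5.07 to 7.44 CPM) did not touch. The log2 fold change, -1.06 with a standard error of 0.55 (adjusted p = 1 in edgeR's test), rested on wild-type replicate 1 and was 0.20 without it.

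Markers of neural crest cells and their glia moved with this library in part, and those named here were picked after their values were seen. Sox10, which encodes a transcription factor of neural crest and glia, had 13 and 0 counts in mutant ovaries, 67 in wild-type replicate 1 and 4 in wild-type replicate 2. Of the 10 markers of neural crest, glia and melanoblasts, 5 were highest in wild-type replicate 1 and the other 5 in another library, and their summed level was 58.4 and 68.3 CPM in mutant and 75.4 and 61.8 CPM in wild-type ovaries. Foxd3 had 3 counts and Tfap2a had 2 counts in wild-type replicate 1, and both had 0 in the other 3 libraries. Erbb3 was 16.0 CPM in that library but 17.3 CPM in mutant replicate 1. The 13 endothelial markers summed to 610 CPM in wild-type replicate 1 and to 567 to 651 CPM in the other 3 libraries. The part of these cells in the Ednrb level was not tested. Of the 15219 genes with at least 40 counts in all, 148, or 0.972%, were at least 2-fold above each other library in wild-type replicate 1, against 17 to 56 genes in the other libraries, and Ednrb was 1 of them at 3.002-fold above the next.

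The ratio of Ednra to Ednrb counts, which does not depend on library size, was 4.41 and 5.49 for the mutant and 2.88 and 10.6 for the wild type. The mutant values lay between the wild-type values, and the mean log2 ratio (2 counts added to each gene) differed by -0.18 between mutant and wild type, with no test. With the longest coding transcript as the length, the Ednra level exceeded that of Ednrb in each library, by 3.16 to 11.7 times. With the union of all exons, the wild-type means per kilobase were 12.1 for Ednra and 3.66 for Ednrb.

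The genes most like each receptor across the 4 libraries were sought among the 154 listed genes that were tested, by the root mean square difference of log2 CPM centred on each gene's mean. For Ednra these were Trpc6, a receptor-operated calcium channel (0.082), Bmp2, a growth factor of the fetal ovary (0.11), and Tcf21, a transcription factor of gonadal interstitium (0.14). Tcf21 had 28.0 and 23.2 CPM in mutant and 57.6 and 51.7 CPM in wild-type ovaries, with a log2 fold change of -1.10 and an adjusted p of 0.0811 (edgeR). For Ednrb, those reported here were Epor, the erythropoietin receptor (0.36), and Hand1, a transcription factor (0.39). Epor had 1.99 and 1.13 CPM in mutant ovaries, 4.18 CPM in wild-type replicate 1 and 1.98 CPM in wild-type replicate 2. With 4 libraries such likeness is a description, and it holds the difference between genotypes that chose the endothelin genes.

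**Figure D3:**
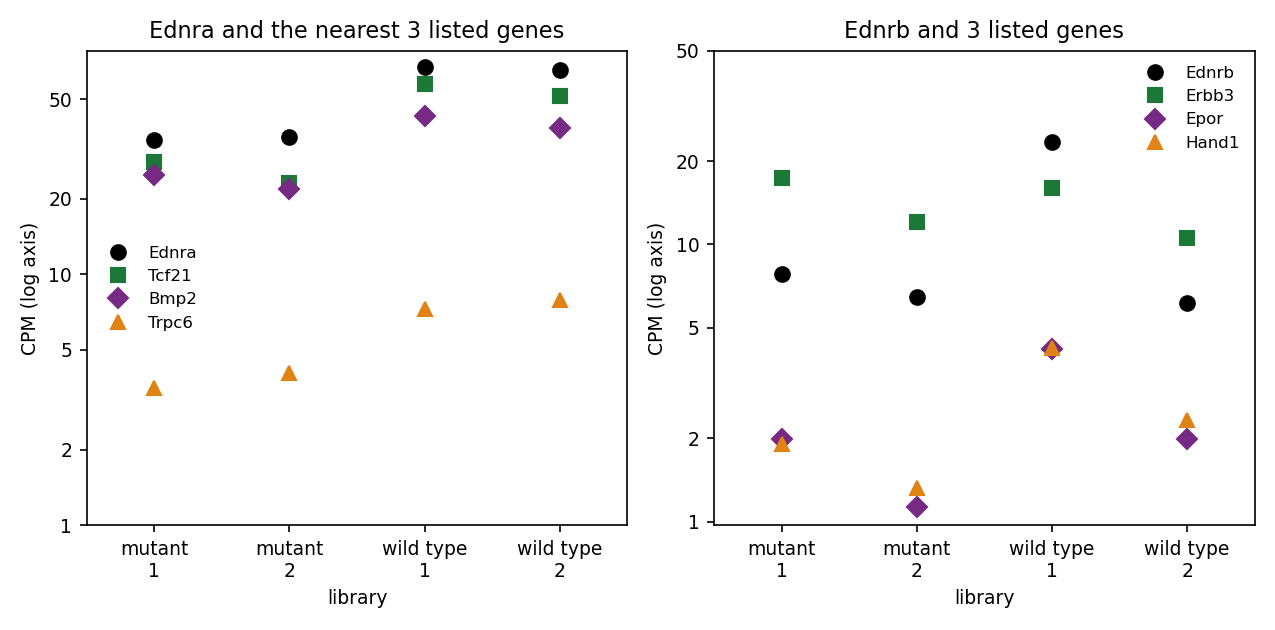
CPM by library on log axes, at the left for Ednra with Tcf21, Bmp2 and Trpc6 and at the right for Ednrb with the glial marker Erbb3 and with Epor and Hand1. Ednra has 34.3 to 35.4 CPM in mutant and 65.5 to 67.3 CPM in wild-type libraries, while Ednrb (23.4 CPM), Epor (4.18 CPM) and Hand1 (4.24 CPM) are highest in wild-type replicate 1.

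Markers of interstitial cells and of smooth muscle and pericytes were set beside Ednra. Which cells of these ovaries carry Ednra RNA was not tested. In these bulk samples fewer cells of a type and less RNA per cell cannot be told apart. The 10 interstitial markers summed to 612 and 473 CPM in mutant and 735 and 708 CPM in wild-type ovaries, a ratio of 1.33 between the group means, and 8 of them were lower in both mutant libraries than in both wild-type libraries, where this held for 15% of all genes tested. None of the 10 passed edgeR's test after adjustment. The unadjusted p was under 0.05 for 7 of the 10 (5.69% of all genes), with DESeq2 3 passed (0.714% of all genes), and with the replicate number as a block 6 passed, each lower in the mutant (2.49% of all genes). The 12 smooth muscle and pericyte markers summed to 362 and 309 CPM in mutant and 395 and 382 CPM in wild-type ovaries, a ratio of 1.16, and 3 of the 11 tested were lower in both mutant libraries. For each 100 CPM of interstitial markers there were 5.61 and 7.49 CPM of Ednra in mutant and 9.15 and 9.25 CPM in wild-type ovaries. For each 100 CPM of smooth muscle and pericyte markers there were 9.49 and 11.5 CPM in mutant and 17.0 and 17.1 CPM in wild-type ovaries. Such sums weigh abundant markers most. The log2 fold changes of single interstitial markers ran from -1.10 (Tcf21) to 0.24 (Ptch1), with -0.93 for Ednra. The part of these cells in the Ednra level was not tested.

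The levels of the genes around the receptors were compared with theirs. Tmem184c, the nearest counted protein-coding gene 52.3 kb from Ednra, had 38.3 ± 1.27 CPM in mutant and 37.1 ± 3.42 CPM in wild-type ovaries (SD, n = 2 each). Ttc29 on the other side had at most 13 counts. Slain1, 110 kb from Ednrb, was 12.4 CPM in wild-type replicate 1 and 13.02 to 15.6 CPM in the other libraries. Ednra and the endogenous Sall1 gene lie on the same chromosome, 11.3 Mb apart. The site of the BAC integration is not given in the sources used here, so this distance does not place the transgene.

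The converting enzyme Ece1 was the most abundant member per length. It had 171 and 165 CPM in mutant and 167 and 152 CPM in wild-type ovaries, from 1884 to 2884 counts, and the groups overlapped. The log2 fold change of Ece1, 0.07 with a standard error of 0.09 (adjusted p = 1 in edgeR's test), stayed between 0.016 and 0.14 over 10 alternatives. With the longest coding transcript as the length, the Ece1 level was 1.75 to 1.87 times that of Ednra in wild-type and 3.52 to 3.74 times in mutant libraries. With the union of all exons, mean levels per kilobase were 30.2 for Ece1 and 12.1 for Ednra in wild-type ovaries. In mutant ovaries they were 31.7 and 6.37, so the size of these ratios depends on the transcript model.

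The row named Ece2 held 0 counts in each of the 4 libraries and was not tested. A further row, named Ece2_copy2, held 84 and 101 counts for mutant and 118 and 139 for wild-type ovaries, or 7.61 and 6.71 CPM against 6.85 and 7.87 CPM. Its groups overlapped (log2 fold change -0.04, standard error 0.22, adjusted p = 1, edgeR). How reads were divided between rows that share a symbol is not given in the sources used here, and the 0 of the first row was not taken as absence of Ece2 RNA.

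The rest of the pathway was described with 6 lists of 95 genes, of which 80 were tested. At an adjusted p under 0.05 in edgeR's test 0 rose and 1 fell, where 0.013% of all genes rose and 0.0453% fell. The gene that fell was Rgs2, a regulator that shortens signalling by the Gq proteins to which both receptors couple. It had 19.5 and 19.6 CPM in mutant and 76.7 and 91.0 CPM in wild-type ovaries, which gave a log2 fold change of -2.10 with a standard error of 0.13 (adjusted p = 0.00823 in edgeR's test). None of the other 10 genes of receptor desensitization, which include receptor kinases and arrestins, passed, and Rgs3 came next with a log2 fold change of 0.29 (adjusted p = 0.762). The median log2 fold change of this list was -0.035.

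Of the 8 tested peptidases and proprotein convertases, 0 passed in edgeR's test, 4 were at an unadjusted p under 0.05 (5.69% of all genes) and 1 passed with DESeq2 (0.714% of all genes). With the replicate number as a block 3 passed, each lower in the mutant (2.49% of all genes). The gene that passed with DESeq2 was Mme, encoding neprilysin, a relative of the converting enzymes that degrades small peptides including endothelins. Mme had 50.2 and 35.3 CPM in mutant and 93.8 and 74.4 CPM in wild-type ovaries, and both mutant libraries were lower (log2 fold change -0.98, standard error 0.19, adjusted p = 0.266, edgeR). Pcsk5, a convertase, had 30.1 and 24.6 CPM in mutant and 39.7 and 40.1 CPM in wild-type ovaries (log2 fold change -0.55, adjusted p = 0.430). The median of the list was 0.017.

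Among the 27 tested G proteins and effectors, 0 passed in edgeR's test and 0 with DESeq2, and 3 were at an unadjusted p under 0.05 (5.69% of all genes). With the replicate number as a block 1 passed, Trpc6, lower in the mutant (adjusted p = 0.036, edgeR), where 2.49% of all genes passed. Trpc6 had 3.53 and 4.05 CPM in mutant and 7.26 and 7.93 CPM in wild-type ovaries (log2 fold change -0.996, adjusted p = 0.425, edgeR), and Plcb4, a phospholipase C of the Gq pathway, had a log2 fold change of 0.42 (adjusted p = 0.539). The median of the list was -0.011. Of the 5 tested genes that depend on Ednra in the cranial neural crest, 0 passed with either tool and 1, Hand1, was at an unadjusted p under 0.05 (log2 fold change -1.03, adjusted p = 0.873, edgeR), followed by Mef2c (-0.29, adjusted p = 1). Dlx5, Dlx6 and Gsc of this list were below the filter. Of the 15 tested immediate early genes, which respond quickly to receptor activation, 0 passed with either tool and 0 were at an unadjusted p under 0.05. Myc (log2 fold change -0.62, adjusted p = 0.899) and Egr2 (0.81, adjusted p = 1) had the smallest p, and the median was -0.13.

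**Figure D4:**
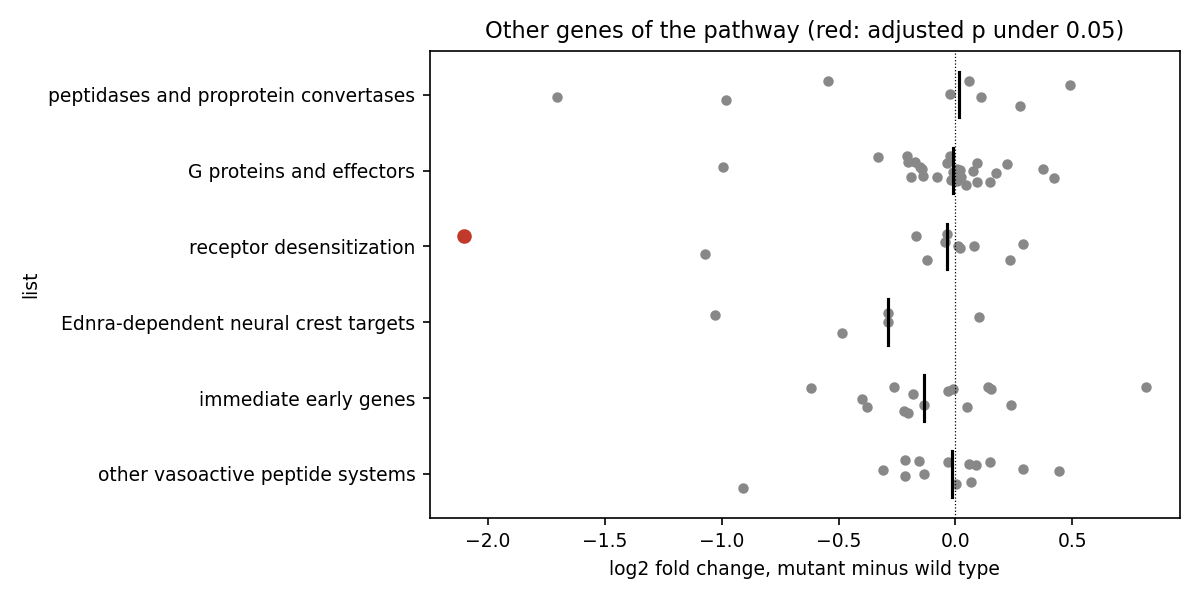
Log2 fold changes, mutant minus wild type, of the 80 tested pathway genes in 6 lists; each point is a gene, the black bars are list medians (between -0.29 and 0.017), and red marks an adjusted p under 0.05 in edgeR's test. Rgs2 at -2.10 is the red point, and the other genes lie between -1.71 and 0.81.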

How the data were processed

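Reads were mapped with STAR 2.6.1d and counted per gene with summarizeOverlaps, and the deposited values are raw counts for each library, neither normalized nor pooled by the authors. The submitters' processing notes name mm9; annotation and strand handling are not given in the sources used here. Columns were matched to samples by genotype and replicate number, and 0 were unused.

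Counts were analysed in R 4.3.3 with edgeR 4.0.16 (TMM, filterByExpr, quasi-likelihood F-test, genotype as the only factor, adjusted p under 0.05) on all 15442 genes tested; the standard error of a log2 fold change was taken as its size over the square root of F. DESeq2 1.42.0, other normalizations and filters, a replicate block and leaving out each library were alternatives. The script was tested on simulated data. Replicates differed by more than sampling noise (chi-square per degree of freedom 11.8 and 13.2). Positions and lengths come from GENCODE M1.

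The endothelin genes and the lists (6 pathway, 9 marker) were chosen with earlier results of these data known. Named pathway genes are those that passed and otherwise the 2 with the smallest p in each list; other genes are markers, neighbours or the 3 listed genes nearest to each receptor, of which some results are not reported here. Log2 values per library have a prior count of 2.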

Additional observations from a re-analysis of the deposited data

How the results depend on the processing

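The number of genes called, 9 without a block, became 105 with DESeq2, 28 with no filter on low counts, 19 with at least 10 counts in every library, 385 with the replicate block, and 4 to 130 with each library left out (130 without mutant replicate 1, 38 without mutant replicate 2 and 4 without wild-type replicate 2). The endothelin genes called, 0 in the first fit, became 1 (Ednra) with DESeq2, with no filter, with at least 10 counts and with the replicate block, and 0 to 1 with each library left out, being 1 without either mutant library. The pathway genes called, 1, became 3 with DESeq2 (0.714% of all genes called) and 6 with the replicate block (2.49% of all genes called). A group of 1 was assumed to vary as the other group does. The cause of these changes was not tested. For Ednra the adjusted p was 0.0558 with RLE and 0.0533 with upper-quartile factors, 0.016 with no filter, 0.0335 with at least 10 counts, 0.0122 and 0.0197 without mutant replicates 1 and 2, and 0.263 and 0.166 without wild-type replicates 1 and 2. With the replicate block the adjusted p of Ednra by edgeR was 0.000103 at a log2 fold change of -0.93. The labels do not say that equal numbers share a litter or day. However, the column names give libraries of equal replicate number consecutive library numbers, and the study calls the controls littermates. Deviations of same-numbered libraries correlated at 0.481 across genes, with 2 pairs. The common dispersion, the spread that edgeR shares across genes, was 0.0210 without the block and 0.00639 with it. A shared batch was neither shown directly nor tested. With the replicate block, the markers that passed as lower included 6 of 10 tested interstitial, 4 of 6 blood and 2 of 4 mesothelium genes. They also included 1 of 13 endothelial, 1 of 11 smooth muscle and pericyte and 1 of 11 pre-granulosa genes. As higher, 2 of the 11 pre-granulosa and 1 of 7 neural crest genes passed. Of all genes, 2.49% passed with the block in either direction. None of these markers passed edgeR's test without the block. The log2 fold change of Ednrb, -1.06, was 0.20 without wild-type replicate 1 and -1.71 without wild-type replicate 2, and that of Edn2, -0.35, was 0.12 without mutant replicate 2 and -0.98 without mutant replicate 1. Edn1, Edn3 and Ece1 kept their direction and stayed above the threshold under 10 alternatives each. The difference of the log2 ratio of Ednra to Ednrb, -0.18, was -0.17 with no counts added and -1.11 to 0.75 with each library left out. Edn1 and Edn2 had 14 to 37 counts per library, and what difference these could show was not tested.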

Other observations

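Other vasoactive peptide systems in these ovaries were described with a list of 20 genes of the angiotensin, natriuretic peptide, adrenomedullin and vasopressin systems and of nitric oxide synthesis, 14 of which were tested. None of the 14 passed edgeR's test without a block. At an unadjusted p under 0.05 there was 1, with DESeq2 1 passed and with the replicate block 1 passed. The median log2 fold change was -0.014. In each case the gene was Calcrl, the receptor subunit for adrenomedullin. It had 14.3 and 11.1 CPM in mutant and 21.9 and 25.6 CPM in wild-type ovaries (log2 fold change -0.91, standard error 0.18, adjusted p = 0.266, edgeR). With the block its adjusted p by edgeR was 0.00465, where 2.49% of all genes passed. Adm, the adrenomedullin precursor, came next with a log2 fold change of 0.44 (adjusted p = 0.989). Of the remaining marker lists, 0 of 5 tested macrophage, 0 of 6 blood and 0 of 4 mesothelium genes passed edgeR's test, with 0, 2 and 2 at an unadjusted p under 0.05 and 0, 1 and 2 with DESeq2. Of the pre-granulosa, germ cell, endothelial, smooth muscle and pericyte, and neural crest lists, 0 of 11, 0 of 8, 0 of 13, 0 of 11 and 0 of 7 tested genes passed edgeR's test, with 4, 0, 1, 3 and 3 at an unadjusted p under 0.05 and 2, 0, 0, 0 and 0 with DESeq2. Over all genes, 5.69% were at an unadjusted p under 0.05 and 0.714% passed with DESeq2.

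The count table holds 1781 rows whose names end in a copy number, for 853 symbols. For 27 symbols, Ece2 among them, the plain row had 0 counts in the 4 libraries while a copy row had at least 40 in all. Of the members and listed genes, Ece2 and Rock1, a kinase downstream of the receptors, have copy rows.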
